A study of Drosophila melanogaster with 12 samples.

Results

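The 49 probes of oxidative phosphorylation subunit genes were examined on cDNA arrays that set head RNA of drug-fed *Drosophila melanogaster* against head RNA of control flies. They are the probes with 1 gene symbol, updated through its Entrez identifier, that starts with ND-, Sdh, UQCR, COX, Cyt-c or ATPsyn, out of 13824 probes in all. They stand for 42 genes, of 6793 genes with a probe of a single symbol. The flies were unmated males of the wild-type strain Oregon-R, labelled as 3 to 4 days old, although the growth protocol adds 10 to 11 days on normal food. One group ate 8 mg/ml pentylenetetrazole (PTZ), a drug that provokes seizures, with 5 mg/ml levetiracetam (LEV), an antiepileptic drug, for 12 h. A second group ate the same mixture for 2 days (2 d). The third ate both drugs for 4 days and then, per the treatment protocols, 8 mg/ml PTZ alone for 3 days (7 d). One passage of the series design text names LEV as the later food. Control flies were kept on normal food for the same times, and all flies were held 30 to a vial. Each of the 12 arrays, 4 per time, compared 1 treated pool of heads with the control pool of its own set, so a value describes pooled whole heads and not single flies or cell types. Per the series design text the 4 sets of a time are biological replicates.

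Oxidative phosphorylation is the last stage of respiration in the inner mitochondrial membrane. Complexes I and II pass electrons from NADH and succinate to ubiquinone, complex III passes them on to cytochrome c and complex IV to oxygen. The proton gradient built on the way drives complex V, the ATP synthase. Neurons and photoreceptors of the fly head depend heavily on this supply of ATP. Most subunits are nuclear genes, and several have a second copy, named with a final L, many of which are known mainly from testis.

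Each value is a log2 ratio between the dyes of an array, centred on the median of all probes of that array, so 0 means no difference from the typical probe of that array. At every time the drug-fed sample was in Cy5 on replicates 1 and 2 and in Cy3 on replicates 3 and 4, the dye-swapped arrays. Whether the authors formed Cy5 over Cy3 or treated over control is not stated in the sources. Values of Cy5-treated arrays read as treated over control either way. Values of dye-swapped arrays are given as deposited, and their sign must be turned if the ratios are Cy5 over Cy3. A mean called turned takes that step and a mean called as deposited does not. Arrays held 781 to 7102 measured probes, the 7 d replicate 4 array holding the most, and deposited array medians ran from -0.69 to 0.85 before centring. In bulk heads, fewer cells of a type and less RNA per cell cannot be told apart.

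The oxidative phosphorylation genes were measured on many arrays more often than other genes. Of the 42, 13 (31.0%) had a value on 6 or more arrays, against 253 of 6793 genes with a single symbol (3.72%). The shares with no value on any array lay closer, at 10 of 42 (23.8%) and 30.7%, leaving 32 members with at least 1 value. On 11 of the 12 arrays the share of the 42 genes with a value was above that of all single-symbol genes. The exception was 7 d replicate 4, with 50.0% of the 42 and 57.9% of all. Counts per array ran from 4 genes on 7 d replicate 1 to 25 on 12 h replicates 3 and 4.

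**Figure D1:**
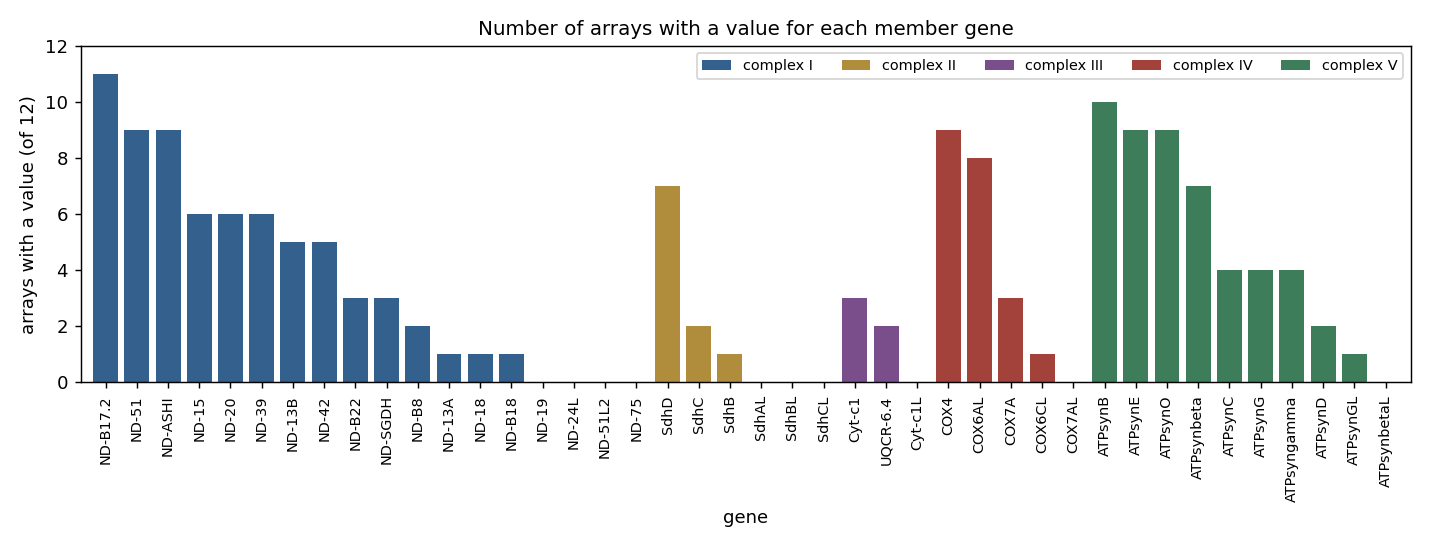
Bars give the number of arrays, out of 12, on which each of the 42 genes had a value, grouped by respiratory complex and ordered within it. ND-B17.2 leads with 11 arrays and ATPsynB follows with 10, while 10 genes have none.

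Complexes differed in how much of them could be seen. The array carried 18 of 40 nuclear genes whose RefSeq symbol fits the rule for complex I, 6 of 8 for complex II (the 8 include an assembly factor), 3 of 11 for complex III, 5 of 16 for complex IV and 10 of 15 for complex V. Genes with any value numbered 14, 3, 2, 4 and 9 in the same order. Neither of the 2 cytochrome c genes was among the named probes, and neither were the 3 mitochondrial genes called COX1 to COX3. The L copies stood apart in their coverage: 8 of 11 (72.7%) had no value on any array, against 2 of 31 other genes (6.45%) and the 30.7% of all single-symbol genes. Those without a value were ND-24L, ND-51L2, SdhAL, SdhBL, SdhCL, Cyt-c1L, COX7AL and ATPsynbetaL, with ND-19 and ND-75 among the others. COX6CL and ATPsynGL had a value on 1 array each. COX6AL was measured on 8 arrays. Whether RNA of its relative levy, which encodes the other form of this complex IV subunit, also binds the COX6AL probe was not tested.

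In limma, none of the tested genes of the pathway passed an adjusted p of 0.05 at any time, in either reading of the ratios. At 12 h 15 genes were tested among 1283 probes, at 2 d 9 among 1001 and at 7 d 5 among 865, each with values on at least 3 of the 4 arrays. Over all probes 0% passed at each time and in each reading. At an unadjusted p under 0.05 stood 58 probes (4.52%) at 12 h, 16 (1.6%) at 2 d and 34 (3.93%) at 7 d with dye-swapped arrays turned, of which 0 were members. As deposited the counts were 103 (8.03%), 133 (13.3%) and 69 (7.98%), again with 0 members. The smallest adjusted p of a member was 0.867 at 12 h, 0.995 at 2 d and 0.923 at 7 d turned, and 0.755, 0.448 and 0.611 as deposited. Standard errors of the members, each on 3 or 4 arrays, ran from 0.20 to 0.47 log2 units over the 3 times when turned. Changes larger than these could also go uncalled. ATPsynbeta at 12 h, with a turned mean of 0.55 and a standard error of 0.26, had a limma adjusted p of 0.867. In all, 18 genes were tested at 1 time or more, and ND-B17.2 alone at all 3.

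**Figure D2:**
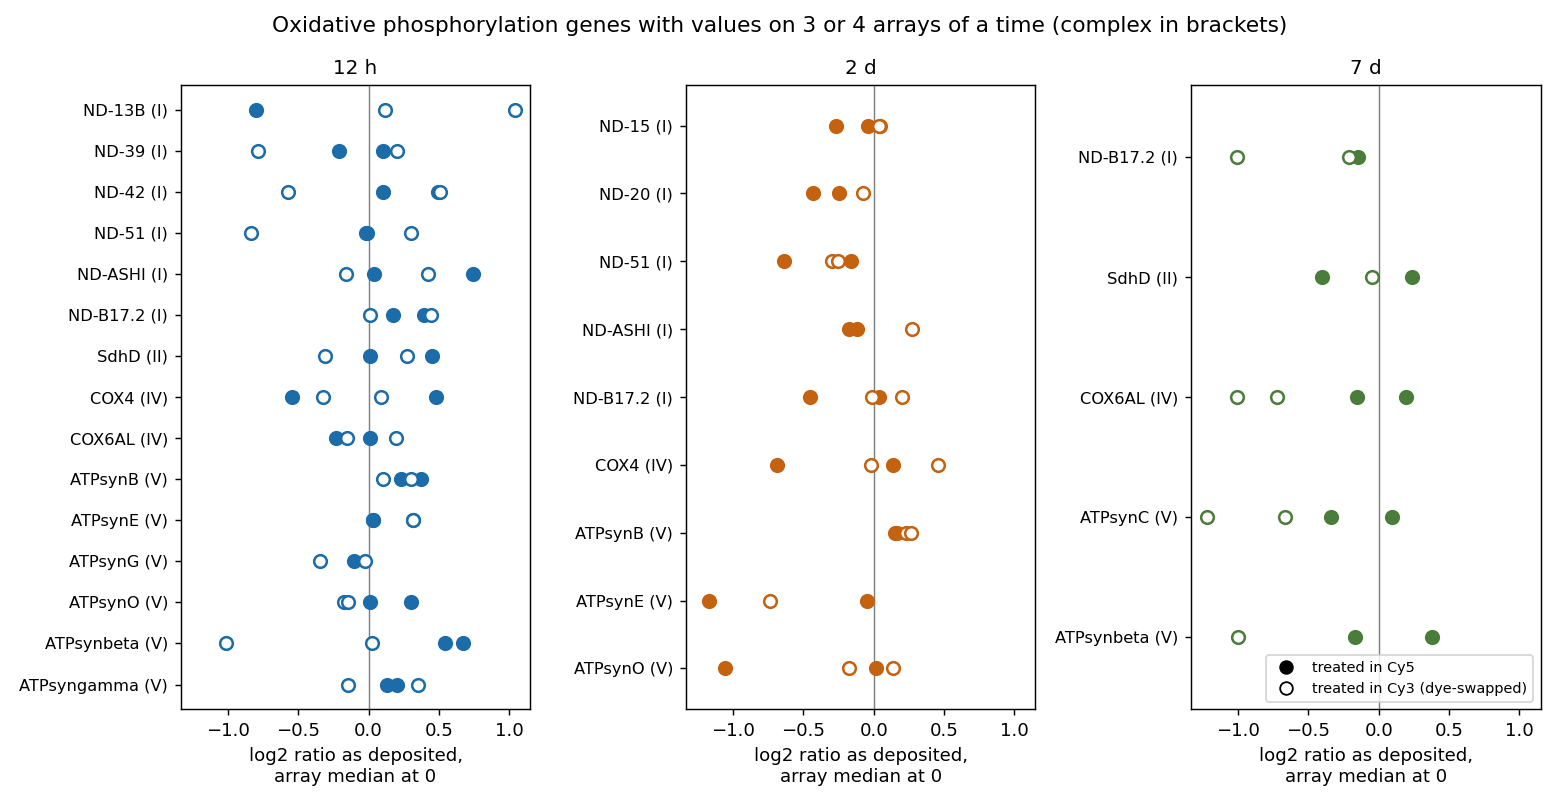
Each point is the log2 ratio of 1 gene on 1 array as deposited, with the array median at 0, for genes with values on 3 or 4 arrays of a time. Filled points are arrays with the treated sample in Cy5 and open points are dye-swapped arrays. ATPsynB lies above 0 on all 4 arrays at 12 h and at 2 d.

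Complex I, the NADH dehydrogenase, supplied the most genes. ND-B17.2, an accessory subunit, had the widest coverage. At 12 h it stood at 0.18 and 0.40 on the Cy5-treated arrays and at 0.0072 and 0.45 on the dye-swapped ones, above the array median throughout as deposited. At 2 d it stood at 0.04 and -0.45, then at 0.20 and -0.01 on dye-swapped arrays, and at 7 d at -0.15 on replicate 2, -0.21 on replicate 3 and -1.01 on replicate 4. The 7 d values were all below 0 as deposited, and replicate 4 was the lowest of the 11 arrays. Turned means were 0.03 ± 0.36 (SD, n = 4 arrays), -0.15 ± 0.23 (n = 4) and 0.36 ± 0.59 (n = 3) at 12 h, 2 d and 7 d, and means as deposited were 0.26 ± 0.20, -0.05 ± 0.28 and -0.46 ± 0.48. The turned mean was smaller than its SD at all 3 times. Without 7 d replicate 4 the 7 d turned mean was 0.029, and without replicate 2 it was 0.61, each over 2 arrays.

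ND-51, the flavoprotein subunit that takes electrons from NADH, lay at -0.01 and -0.02 on the Cy5-treated arrays of 12 h, and at -0.84 and 0.30 on the dye-swapped ones. At 2 d all 4 values were below 0, with -0.16 and -0.64 on Cy5-treated and -0.30 and -0.25 on dye-swapped arrays. Its 2 d mean was -0.34 ± 0.21 as deposited (n = 4; limma adjusted p = 0.469) and -0.06 ± 0.43 turned. As deposited, ND-51 was below the median on 8 of its 9 arrays. A second ND-51 probe, on 12 h replicates 3 and 4 alone, read -0.27 and 0.78, higher than the first by 0.57 and 0.48 but in the same order. Some second probes of other genes differed in sign from the first: ATPsynG read 0.67 against -0.03 and COX7A 0.93 against -0.08 on 12 h replicate 4, and ND-SGDH 0.88 against -0.03 on 7 d replicate 3. On 7 d replicate 4 the ATPsynG probes shared a sign, at -0.96 against -0.32. The second SdhD probe read -0.63, 0.80 and 1.27 on 12 h replicates 3 and 4 and 7 d replicate 3, the last an array without a value of the first. On the 12 h arrays it had the sign of the first SdhD probe, which read -0.31 and 0.27.

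ND-ASHI, a further accessory subunit, held 0.04 and 0.74 on Cy5-treated arrays at 12 h, and -0.16 and 0.43 on dye-swapped arrays. At 2 d its values were -0.17 and -0.12 on Cy5-treated arrays and 0.27 on replicate 3. Turned, the 3 values of 2 d lay close together at a mean of -0.19 ± 0.08 (n = 3), the smallest SD of any member at 2 d in that reading, while as deposited the mean was -0.0062 ± 0.24. In the 12 h group the means were 0.13 ± 0.48 turned and 0.26 ± 0.40 as deposited (n = 4). At 7 d it had 0.01 and -0.42 on replicates 3 and 4, and its 2 spots on replicate 3 differed by 1.044 log2 units.

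ND-39 and ND-42, both accessory subunits, were tested at 12 h. ND-39 stood at -0.21 and 0.10 on Cy5-treated and at -0.79 and 0.20 on dye-swapped arrays, and ND-42 at 0.10 and 0.49, then -0.57 and 0.51. In both genes replicate 3 was the low array, and the 2 spots of ND-39 on it differed by 1.27. At 7 d ND-39 stood at -0.21 and -0.51 on replicates 3 and 4, and ND-42 at -0.26 on replicate 4. Their turned means, 0.12 ± 0.47 and 0.17 ± 0.49 (n = 4 each), were below their SDs. ND-13B, another accessory subunit, had the most negative turned mean of the 12 h members. It stood at -0.80 on replicate 2 and, as deposited, at 1.04 and 0.12 on replicates 3 and 4, for a turned mean of -0.65 ± 0.48 (n = 3; limma adjusted p = 0.867) and 0.12 ± 0.92 as deposited. Its duplicate spots differed by 0.03 to 0.20 on these arrays, so the spread lay between arrays. At 7 d it stood at -0.08 on replicate 2 and 0.12 on replicate 3.

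At 2 d, ND-15, an accessory subunit, was at -0.27 and -0.04 on Cy5-treated and at 0.04 and 0.03 on dye-swapped arrays (turned mean -0.10 ± 0.11, n = 4). ND-20, the core subunit that holds the last iron-sulphur cluster before ubiquinone, lay at -0.24 and -0.43 on Cy5-treated arrays and -0.08 on replicate 3. All 3 of its values were below 0 as deposited, with a mean of -0.25 ± 0.18 against -0.20 ± 0.26 turned (n = 3). Outside 2 d, ND-15 was at 0.39 on 12 h replicate 2 and -0.64 on 7 d replicate 4, and ND-20 at 0.16, -0.63 and -0.21 on 12 h replicates 3 and 4 and 7 d replicate 4. The 2 spots of ND-20 on 12 h replicate 3 differed by 1.48 log2 units.

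Complex II, succinate dehydrogenase, is shared with the citric acid cycle, and SdhD, one of its membrane anchors, was its tested gene. At 12 h it stood at 0.45 and 0.01 on Cy5-treated and at -0.31 and 0.27 on dye-swapped arrays. At 7 d it stood at 0.24 and -0.41 on Cy5-treated arrays and at -0.05 on replicate 4. Values of both signs occurred at both times, with turned means of 0.12 ± 0.32 (n = 4) and -0.04 ± 0.33 (n = 3) and means as deposited of 0.10 ± 0.33 and -0.07 ± 0.32. For genes on too few arrays for a test, values are given below where their complex has few other genes, a choice made after the values were seen. SdhB, the iron-sulphur subunit, had 1 value, 0.35 on 12 h replicate 3, and SdhC, the other anchor, had -0.43 and 0.06 on 12 h replicates 3 and 4. The 2 spots behind the SdhB value differed by 1.094 log2 units.

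Complex III could not be tested. Cyt-c1, its cytochrome subunit, was below the median as deposited on all 3 arrays that measured it, all dye-swapped, at -0.55 and -0.23 at 12 h and -0.51 at 7 d. UQCR-6.4, a small subunit, stood at -0.25 and 0.12 on 12 h replicates 3 and 4.

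Complex IV, cytochrome c oxidase, was represented by COX4 and COX6AL. COX4, a nuclear-encoded subunit, was at 0.48 and -0.55 on the Cy5-treated arrays of 12 h, and at -0.33 and 0.09 on the dye-swapped ones. At 2 d it was at 0.14 and -0.69, then 0.46 and -0.02. The 2 Cy5-treated arrays thus disagreed in sign at both times, and the turned means were 0.04 ± 0.46 and -0.25 ± 0.39 (n = 4 each), against -0.08 ± 0.45 and -0.03 ± 0.48 as deposited. On 7 d replicate 4 it stood at -0.93.

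COX6AL lay near the median at 12 h, with 0.01 and -0.23 on Cy5-treated and -0.15 and 0.19 on dye-swapped arrays. At 7 d the Cy5-treated arrays held 0.20 and -0.15, and the dye-swapped arrays -1.01 and -0.72. The dye-swapped values at 7 d lay below all its others. Its 7 d mean was 0.44 ± 0.52 turned and -0.42 ± 0.54 as deposited (n = 4), and 0.26 turned without replicate 3. Its relative levy, which the naming rule leaves out, was measured at 12 h alone, at 0.15 and 0.45 on Cy5-treated and -0.13 and -0.07 on dye-swapped arrays. COX7A, another small subunit, had 0.39 and -0.08 on 12 h replicates 3 and 4 and 0.0085 on 7 d replicate 4. The 2 spots behind its 0.39 differed by 1.734 log2 units.

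Complex V, the ATP synthase, held the gene with the highest mean over the Cy5-treated arrays of a time, 0.61 for ATPsynbeta at 12 h. ATPsynbeta, the catalytic subunit, stood at 0.55 and 0.67 on the Cy5-treated arrays of 12 h, and at -1.02 and 0.02 on dye-swapped arrays. The first 3 of these point the same way if the dye-swapped values are turned, and the fourth lies at the median. The turned mean was 0.55 ± 0.43 with a standard error of 0.26 (n = 4; limma unadjusted p = 0.0822, adjusted p = 0.867), while as deposited it was 0.06 ± 0.77. Duplicate spots of ATPsynbeta differed by 0.02 to 0.28 on these arrays. At 7 d it was at 0.38 and -0.17 on Cy5-treated arrays and at -0.9985 on replicate 4, giving 0.41 ± 0.58 turned and -0.26 ± 0.70 as deposited (n = 3). The turned mean was 0.11 without replicate 4 and 0.69 without replicate 2, each over 2 arrays.

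ATPsyngamma, the rotating shaft inside the catalytic head, was at 0.13 and 0.20 on Cy5-treated and -0.15 and 0.35 on dye-swapped arrays of 12 h (turned mean 0.03 ± 0.26, n = 4). ATPsynC forms the proton-driven ring and was measured on the 7 d arrays alone, at 0.09 and -0.34 on Cy5-treated and -1.22 and -0.67 on dye-swapped ones. As in COX6AL, both dye-swapped values lay below both Cy5-treated ones. The 7 d mean of ATPsynC was 0.41 ± 0.68 turned and -0.53 ± 0.56 as deposited (n = 4; limma adjusted p = 0.923 and 0.611). Its turned mean was 0.14 without replicate 3 and 0.33 without replicate 4.

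The stalk and membrane subunits differed among themselves. ATPsynB, which holds the catalytic head in place, stood above 0 as deposited on all 8 arrays of 12 h and 2 d. The 12 h values were 0.23 and 0.37 on Cy5-treated and 0.30 and 0.10 on dye-swapped arrays, and the 2 d values 0.17 and 0.15, then 0.23 and 0.26. Both dye-swapped arrays of 7 d had it well below 0, at -0.64 and -0.49. Its mean as deposited was 0.25 ± 0.12 at 12 h, and 0.20 ± 0.05 at 2 d (n = 4 each; limma adjusted p = 0.755 and 0.563), and turned means were 0.05 ± 0.31 and -0.04 ± 0.24. The 2 d SD as deposited was the smallest of all members at any time. A probe-specific difference between the dyes, if ratios are Cy5 over Cy3, and a rise, if they are treated over control, cannot be told apart here.

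ATPsynO, the subunit that joins stalk and head, was at 0.30 and 0.009 on Cy5-treated and -0.18 and -0.14 on dye-swapped arrays at 12 h. Turned, these 4 values shared a sign, with a mean of 0.16 ± 0.12 (n = 4; limma adjusted p = 0.912) and a mean of -0.0036 ± 0.22 as deposited. At 2 d it stood at 0.02 and -1.06, then 0.13 and -0.18, for a turned mean of -0.25 ± 0.55, in which replicate 2 was far below the others. On 7 d replicate 4 it was at -0.96. ATPsynE, a membrane subunit linked to pairing of ATP synthases, was at 0.03 and 0.03 on Cy5-treated and 0.31 and 0.31 on dye-swapped arrays at 12 h. The 2 ATPsynE spots on 12 h replicate 4 differed by 1.105 log2 units. At 2 d it was at -0.05, -1.17 and -0.74 on replicates 1 to 3, a mean of -0.65 ± 0.57 as deposited and -0.16 ± 0.96 turned (n = 3). The 2 spots behind its -1.17 differed by 2.91 log2 units. Without that array the turned mean was 0.35, without replicate 3 it was -0.61 and without replicate 1 it was -0.22, each over 2 arrays. At 7 d ATPsynE was at -0.07 on replicate 2 and -0.72 on replicate 4. ATPsynG, a partner of ATPsynE in the membrane, stood at -0.11, -0.35 and -0.03 on 12 h replicates 2 to 4 (turned mean 0.09 ± 0.23, n = 3). ATPsynD, of the stalk, had 0.15 and 0.64 on 12 h replicates 3 and 4.

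14 genes had a value but too few arrays for a test, and held 26 values from -1.76 to 0.79 as deposited, with a median of -0.06. The lowest was ND-B22 on 12 h replicate 4 and the highest COX6CL on 12 h replicate 3. The 2 spots behind these values differed by 2.692 log2 units for ND-B22 and by 0.846 for COX6CL. Of the 26, 12 lay above and 14 below 0. They also included ND-B8, ND-SGDH, ND-B18, ND-13A and ND-18.

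Seen array by array, the genes lay closer together than other genes did. The interquartile range of the members on an array was 0.10 to 0.71, that of all probes 0.56 to 1.77 and that of single-symbol genes 0.32 to 1.29, and the members' was the smallest of the 3 on all 12 arrays. Duplicate spots of the members also lay closer: over 154 pairs of member spots the median difference was 0.18 and 7.14% differed by over 1 log2 unit, against 0.38 and 21.3% over 21403 pairs of all probes. Signal strength was not used here, and its part in this was not tested.

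**Figure D3:**
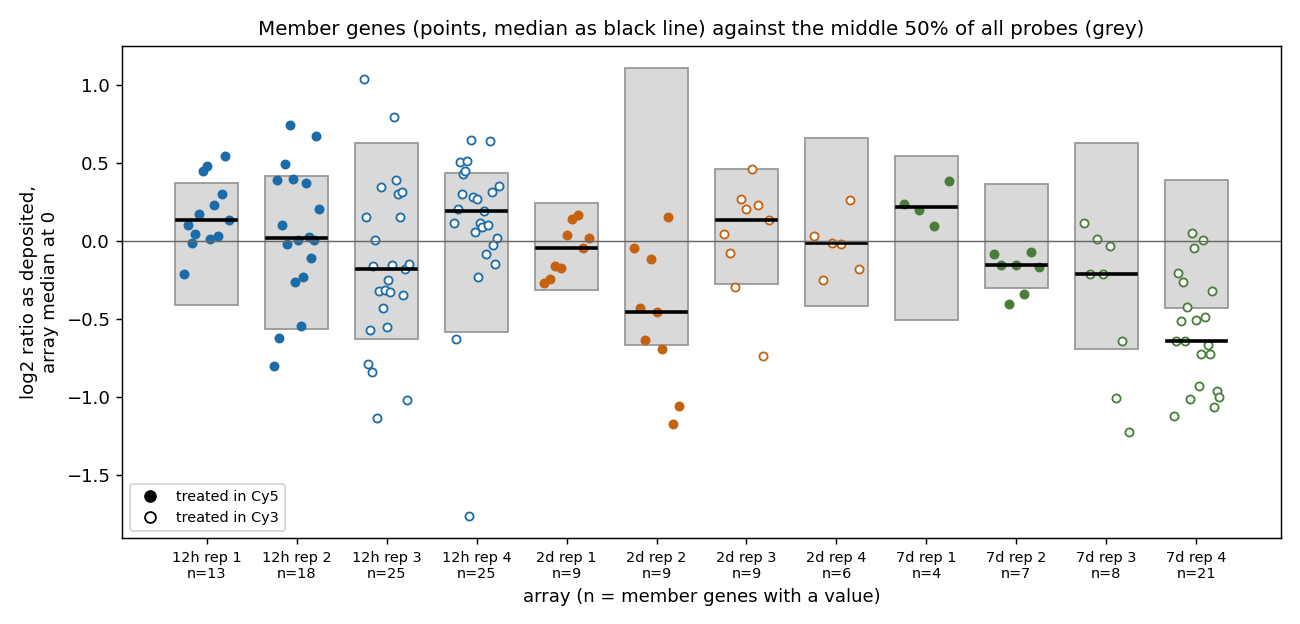
Points are the member genes on each array as deposited with the array median at 0, filled where the treated sample was in Cy5 and open where it was in Cy3. The black line is their median and the grey bar spans the middle 50% of all probes. On 7 d replicate 4 the member median of -0.64 lies below the grey bar.

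Their shared position moved between arrays. Member medians as deposited for replicates 1 to 4 were 0.13, 0.02, -0.18 and 0.19 in the 12 h group, -0.05, -0.45, 0.13 and -0.02 at 2 d, and 0.22, -0.15, -0.21 and -0.64 at 7 d. On the other 11 arrays, 34.4% to 61.1% of all probes were below the member median. On 7 d replicate 4, 19 of 21 genes were below 0, and 16.1% of all probes were below the member median. On 12 h replicate 4, of the same dye orientation, 19 of 25 were above 0. Of 17 genes measured on both of these arrays, 14 were lower on the 7 d one, by a median of 0.77, where the median difference of 1356 single-symbol genes was 0.04 in the other direction. Against 12 h replicate 3, also dye-swapped, 9 of 16 genes were lower on 7 d replicate 4, with a median difference of -0.31 where single-symbol genes differed by -0.10. The 2 dye-swapped 12 h arrays themselves differed, with 19 of 23 genes higher on replicate 4 by a median of 0.44, against 0.30 for single-symbol genes. The gap to 7 d replicate 4 thus depended on the array it was set against, and single arrays allow no test. The part of the number of measured probes, highest on 7 d replicate 4 with 7102 against 3798, was not tested.

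On the arrays of settled direction, most members at 12 h were above the median. Of 13 genes with values on both Cy5-treated arrays, 9 were above 0 on both, 1 (ND-51) was below on both and 3 were mixed, where 30.9% of all 1113 probes were above on both and 30.3% below. The 9 were ND-42, ND-ASHI, ND-B17.2, SdhD, ATPsynB, ATPsynbeta, ATPsynE, ATPsyngamma and ATPsynO. On 12 h replicate 2, however, ATPsynO (0.009), SdhD (0.0095) and ATPsynE (0.0285) lay near 0, as did ND-51 on both arrays (-0.0115 and -0.02). All members with a value on 12 h replicate 2 had a median of 0.019, with 11 above 0 and 7 below. At 2 d the split was the other way, with 1 of 9 genes, ATPsynB, above 0 on both and 5 below on both, against 26.7% and 26.8% of 1045 probes. Those 5 were ND-15, ND-20, ND-51, ND-ASHI and ATPsynE. Near 0 among these values were ND-15 on replicate 2 (-0.0433) and ATPsynE on replicate 1 (-0.0455). The 2 ATPsynE spots on replicate 2 differed by 2.905 log2 units. On 2 d replicate 2 single-symbol genes as a whole had a median of -0.53, so the members' low position there, at -0.45, was shared with other named genes. At 7 d all 4 genes with both values were mixed, being above 0 on replicate 1 and below on replicate 2. The source name of that replicate 1 array calls both of its channels untreated, and its direction rests on the treatment protocol. A pair of arrays allows no test of its own here, and members on 1 array share its labelling and its centring.

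The dye-swapped arrays gave another picture. At 12 h, 15 of 23 genes had opposite signs on replicates 3 and 4, with 5 above 0 on both (31.7% of 2087 probes) and 3 below on both (24.6%). At 2 d, 2 of 6 genes were above on both and 1 below (32% and 29.8% of 781 probes). At 7 d, 5 of 6 were below 0 on both, against 33.8% of 1217 probes, and 0 above on both (27%). The 5 were ND-39, ND-B17.2, COX6AL, ATPsynB and ATPsynC. Whether these genes were lower or higher in treated heads at 7 d depends on the unsettled direction.

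**Figure D4:**
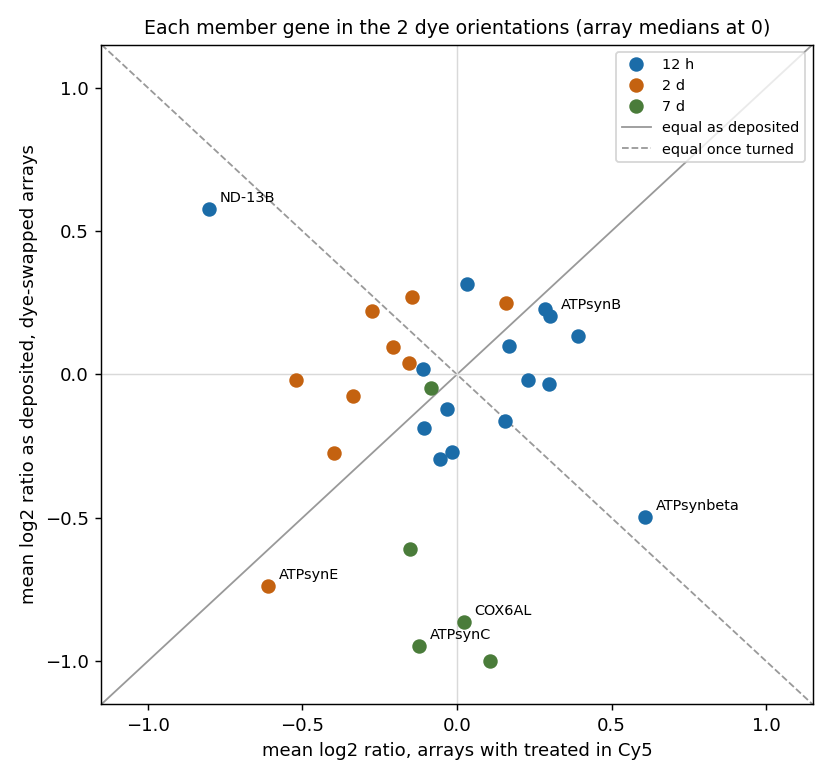
Each point is 1 gene at 1 time, with its mean on Cy5-treated arrays across and its mean on dye-swapped arrays as deposited upwards, array medians at 0. Points on the solid line agree as deposited and points on the dashed line agree once turned. Of the 29 points, 17 have the same sign on both axes and 12 opposite signs.

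Setting both orientations side by side did not single out one reading for these genes. Of the 29 gene and time pairs tested, 17 had means of the same sign in both orientations as deposited and 12 had opposite signs. At 12 h 9 shared a sign and 6 did not, in the 2 d group 5 and 4, and in the 7 d group 3 and 2. Among genes on all 4 arrays, 3 of 13 at 12 h kept 1 sign as deposited (ND-B17.2, ATPsynB and ATPsynE) and 1 kept it when turned (ATPsynO), against 163 (16.6%) and 168 (17.1%) of 981 probes. At 2 d, 2 of 6 did as deposited (ND-51 and ATPsynB) and 1 when turned (ND-15), against 29.3% and 4.59% of 740 probes. At 7 d neither gene on all 4 arrays did in either reading, against 22.7% and 11.8% of 603 probes.

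Turned, 12 of 15 genes had a mean above 0 at 12 h, where 45.1% of all probes did, and the median of the 15 means was 0.09 against -0.05 over all probes. Leaving out 1 array moved this median between 0.017 (without replicate 1) and 0.19 (without replicate 4), and the count above 0 to 9 of 15 without replicate 1, 7 of 13 without replicate 2 or 3 and 11 of 13 without replicate 4. At 2 d all 9 means were below 0, where 41.7% of all probes lay above, with medians of -0.16 and -0.06. Without 2 d replicate 2 the median was -0.0755 with 2 of 6 above 0, and without another array it was -0.19 to -0.16. With arrays centred on single-symbol genes, an alternative chosen after the data were seen, it was -0.0515 with 2 of 9 above 0, where 54.5% of all probes were. At 7 d 4 of 5 were above 0, where 58.4% of all probes were, with medians of 0.41 and 0.11. The 7 d median was 0.20 without replicate 3, with 3 of 4 above 0, 0.34 without replicate 4 and 0.65 without replicate 2, each of these last over 2 genes, and 0.52 over 3 genes without replicate 1. As deposited, 9 of 15 lay above 0 at 12 h (54.5% of probes), 1 of 9 at 2 d (49.2%) and 0 of 5 at 7 d (48.6%), with member medians of 0.10, -0.06 and -0.42. The side of 0 at 7 d thus changed with the reading, while at 2 d most members were below 0 in both. The readings share the Cy5-treated arrays, so the 2 d match is not independent support. On 1 of these, 2 d replicate 2, 8 of 9 members were below 0 and single-symbol genes had a median of -0.53. Median SDs over arrays, turned, were 0.36, 0.26 and 0.58 for members at 12 h, 2 d and 7 d, 0.62, 0.72 and 0.79 for all tested probes and 0.43, 0.41 and 0.53 for tested probes with a single symbol. Members were thus the least variable of the 3 at 12 h and 2 d, and lay between the others at 7 d.

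Between times, ND-B17.2 was the member with values on at least 3 arrays of every time. Its difference was -0.18 (standard error 0.44) from 12 h to 2 d, 0.33 (0.48) from 12 h to 7 d and 0.51 (0.48) from 2 d to 7 d with dye-swapped arrays turned. Of the 658 probes compared, 56.5%, 60.5% and 55.6% had differences above 0 in the same order. As deposited the differences were -0.31, -0.71 and -0.40, where 55.9%, 45.7% and 40.9% of probes were above 0. The limma adjusted p was 0.997, 0.984 and 0.984 turned, and 0.941, 0.901 and 0.972 as deposited. Over the 658 probes 0% passed in each of the 3 contrasts, turned or as deposited, with 20 (3.04%), 26 (3.95%) and 13 (1.98%) at an unadjusted p under 0.05 turned, and 34 (5.17%), 31 (4.71%) and 38 (5.78%) as deposited. The contrasts share arrays: each time enters 2 of them. The mean of ND-B17.2 over the 3 times was 0.08 (standard error 0.19; adjusted p = 0.978) turned, where 0% of probes passed, 3.8% had an unadjusted p under 0.05 and 51.8% lay above 0. As deposited it was -0.09, where 24 probes (3.65%) passed, 23.1% had an unadjusted p under 0.05 and 56.1% lay above 0, ND-B17.2 not being among those that passed.

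A wider comparison of 2 d with 12 h, chosen after the data were seen, took probes with at least 3 arrays at both times. All 7 members in it had lower turned means at 2 d, where 49% of the 855 probes were higher. In 1 pair of arrays single-symbol genes in general were lower too. From 12 h replicate 2 to 2 d replicate 2, 82.6% of 138 single-symbol genes were lower, with a median difference of -0.72. The 8 members on both arrays differed by a median of -0.73. Single-symbol genes had a median of -0.53 on 2 d replicate 2, against -0.009, -0.13 and -0.10 on 2 d replicates 1, 3 and 4. Other pairs of 12 h and 2 d arrays were not compared in this way. In the fit of all times, leaving out 1 array moved the ND-B17.2 difference between -0.34 and -0.06. Centring on single-symbol genes gave -0.06. The wider comparison was not rerun in these ways. The differences ran from -0.02 for ATPsynE to -0.41 for ATPsynO, with COX4 at -0.29 and ND-ASHI at -0.32, and standard errors of 0.31 to 0.50. As deposited, 6 of 7 were lower, where 49.4% of probes were higher, with ATPsynE at -0.83, ND-B17.2 at -0.31 and COX4 at 0.05. Of the 855 probes 0% passed in either reading (limma; 31, or 3.63%, and 43, or 5.03%, at an unadjusted p under 0.05), and the members' adjusted p was 0.995 turned and 0.967 to 0.991 as deposited.

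Other genes of mitochondrial metabolism were few. Beyond the naming rule, levy was the 1 of 19 further oxidative phosphorylation genes on the array. Of 17 citric acid cycle and pyruvate dehydrogenase genes 7 were on it, and Mdh1, a malate dehydrogenase gene, was tested at 12 h (0.43 ± 0.55 turned, 0.35 ± 0.62 as deposited, n = 4). Ogdh, of the citric acid cycle, had values on 3 arrays. Of 9 carrier genes 6 were on the array, and Mpcp2, which brings phosphate into mitochondria for ATP synthesis, was measured on all 12 arrays. Its means were 0.37 ± 0.46, -0.08 ± 0.22 and 0.17 ± 0.35 turned and 0.09 ± 0.62, 0.02 ± 0.24 and -0.06 ± 0.39 as deposited at 12 h, 2 d and 7 d (n = 4 each). Mpcp1 had 2 values. Of 7 antioxidant genes 4 were present, with Trxr1 at 0.23 ± 0.64 turned at 12 h and Prx3 on 3 arrays. No gene of these lists passed in either reading.

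Markers of head cell types were read in the same way. Values were present for 9 of 9 photoreceptor genes on the array (12 in the list), 2 of 2 neuronal genes (of 9), 2 of 3 glial genes (of 5), 5 of 7 fat body genes (of 8) and 3 of 5 muscle genes (of 12). At 12 h 5 photoreceptor genes were tested, with turned means of 0.66 ± 0.41 for inaC, 0.52 ± 0.76 for trpl, 0.14 ± 0.29 for inaD, -0.14 ± 0.48 for Arr1 and -0.34 ± 0.51 for Galphaq (n = 4 each). Thus 3 lay above and 2 below 0, with a median of 0.14. As deposited 2 lay above and 3 below, with inaC at -0.18, trpl at -0.36, inaD at 0.16, Arr1 at -0.04 and Galphaq at 0.41. Of the other markers at 12 h, glial Gs2 was at -0.16 ± 0.40 turned and -0.27 as deposited, fat body Yp2 at -0.17 ± 0.10 and -0.03, apolpp at -0.12 ± 0.78 and -0.57, and muscle Act79B at 0.10 ± 0.40 and 0.18 and Act88F at 0.20 ± 0.44 and -0.16 (n = 4 each). At 7 d Mlc2 of muscle was at 0.34 ± 0.70 turned and -0.54 as deposited (n = 4), and Gad1 of neurons at 0.28 ± 0.52 and -0.30 (n = 3), so both changed sign with the reading. At 2 d the 4 tested markers, inaC, Gs2, Yp2 and Act79B, had turned means of -0.28 to -0.05 and means as deposited of -0.49 to -0.10. The second neuronal gene, nSyb, had 2 values and glial nrv2 had 1. The defining neuronal gene elav and glial gene repo were not among the named probes. On 7 d replicate 4, where the oxidative phosphorylation genes were low as deposited, 6 of 6 measured photoreceptor genes lay below 0, from -1.49 to -0.20, as did 2 of 3 fat body, 2 of 3 muscle, 1 of 2 glial and 1 of 1 neuronal genes. On 12 h replicate 4, where most members were above 0, 3 of 7 photoreceptor genes were above 0, from -2.20 to 0.63. Their part in the members' position was not tested.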

How the data were processed

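Per the labels, each of 12 arrays held cRNA of a treated and a control head pool in Cy5 and Cy3. The deposited values are the log2 ratios of the authors. D12Kv1 cDNA arrays were read with GenePix Pro 6.0 and ratio-normalized in Acuity 4.0, with spot filters (under 3% saturated pixels, regression R2 of at least 0.6, signal-to-noise of at least 3), as the series design text states. Base 2 was read from the shared top value, 16.61. Scanner intensities were not used here. The 27648 spots were averaged as 13824 adjacent pairs, 7558 with 1 symbol. Symbols came from the platform annotation, updated with RefSeq (Release 6 plus ISO1 MT), which held 7447. A gene with several probes is represented by the one on the most arrays. Arrays were centred on their medians and, in the main setting, dye-swapped arrays turned, which assumes Cy5 over Cy3. Probes on at least 3 of 4 arrays were tested per time with limma 3.58.1 in R 4.3.3 (two-sided, Benjamini-Hochberg over all probes, 0.05), and times were compared in 1 fit of all arrays. The limma steps were tested on simulated data. Named genes are all members with at least 3 arrays at a time, with others by number of arrays. 2 list symbols were brought to RefSeq's spelling. Members and lists were chosen with earlier results of these data known. Dye-swapped arrays of 12 h and 7 d carry no replicate number and were numbered in deposition order. For 7 d replicate 1, and likewise 2 d replicate 4, the source names list no treated channel; treatment protocols settled these. P-values of a time rest on the spread between its arrays, which limma draws towards a value shared by all probes. In the comparisons between times and the mean over times, the spread comes from all 12 arrays and is drawn in likewise. SDs are over arrays. Alternatives covered direction, centring, duplicate spots, the array filter, robust variances, scaling and leaving out arrays.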

Additional observations from a re-analysis of the deposited data

Results flagged for a closer look

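In 21 groups of 4 arrays, 2 held an array far from the other 3 (a gap above Dixon's 95% critical value, which chance gives in about 1 of 20 groups, so 2 of 21 is near that share). ATPsyngamma at 12 h was at -0.35 on replicate 4 when turned, with the other 3 arrays at 0.13 to 0.20. ND-15 at 2 d was at -0.27 on replicate 1, with the others at -0.04 to -0.03 when turned.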

How the results depend on the processing

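No call on an oxidative phosphorylation gene changed under any alternative run: 0 passed throughout. Signs were less stable. Read as deposited, means turned sign at 12 h for ATPsynE (0.17), ATPsynG (-0.16), ATPsynO (-0.0036), COX4 (-0.076), ND-13B (0.12), ND-39 (-0.17) and ND-51 (-0.14), at 2 d for ATPsynB (0.20), and at 7 d for ATPsynC (-0.53), ATPsynbeta (-0.26), COX6AL (-0.42) and ND-B17.2 (-0.46). The 7 d median over members became -0.42, ND-B17.2 differed by -0.71 from 12 h to 7 d and by -0.40 from 2 d to 7 d, its mean over all times was -0.085, and 24 probes passed over all times. Centring shifts all probes: uncentred, their median was 0.47 against -0.05 at 12 h, -0.17 against -0.06 at 2 d and -0.23 against 0.11 at 7 d. Without it the 12 h median over members was 0.62, ATPsynE was 0.36, COX6AL 0.44 and ND-13B 0.0495, 10 probes passed at 7 d, and ND-B17.2 differed by -0.45 from 12 h to 7 d. Centring on single-symbol genes, chosen after seeing the data, turned ATPsyngamma (-0.0058) and ND-B17.2 (-0.0099) at 12 h, ATPsynB (0.033) and ND-51 (0.0147) at 2 d and SdhD (0.00075) at 7 d. Scaling arrays turned ATPsynE at 2 d (0.085). Leaving out 1 array gave ranges across 0 at 12 h for ATPsynB (-0.059 to 0.17), ATPsynG (-0.04 to 0.19), ATPsyngamma (-0.023 to 0.16), COX4 (-0.10 to 0.24), ND-39 (-0.10 to 0.23), ND-51 (-0.11 to 0.27), ND-ASHI (-0.075 to 0.31) and ND-B17.2 (-0.093 to 0.19). The same held at 2 d for ATPsynB (-0.12 to 0.029), ATPsynE (-0.61 to 0.35), ATPsynO (-0.39 to 0.02) and ND-51 (-0.18 to 0.13), and at 7 d for SdhD (-0.18 to 0.14). The causes were not tested. Robust variances, the other array filters, requiring both spots and centring on probes of at least 9 arrays turned no sign.

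A fit with the labelled numbers 1 and 2 as a replicate block used the Cy5-treated arrays alone and left out all dye-swapped arrays. In it ND-B17.2, with 5 values of which 1 was at 7 d, differed by -0.49 from 12 h to 2 d. From 12 h to 7 d it differed by -0.37, and from 2 d to 7 d by 0.12. The effect of the block and that of leaving out the dye-swapped arrays cannot be told apart here. In this limma fit 0 of 721 probes passed each contrast (41, 49 and 37 at an unadjusted p under 0.05). Differences between replicates 1 and 2 correlated by 0.00399, -0.0445 and 0.0826 between times, so the numbers were not taken as pairs. Requiring every array left no member in the contrasts between times, nor did leaving out 7 d replicate 2, 3 or 4. The 4 arrays a time limit the precision.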
